A study of Mus musculus with 4 samples.

Results

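The NKG2, NKR-P1 and NKp46 receptors of tumor-infiltrating lymphocytes were followed through 4 single-cell RNA libraries. The set held 10 genes chosen by symbol: Klrc1, Klrc2, Klrd1, Klre1 and Klrk1 of the NKG2 and CD94 group, Klrb1a, Klrb1c and Klrb1f of the NKR-P1 group, Klrg1, and Ncr1. All 10 symbols were found among the 32285 genes listed for the CD45 sort and among the 31053 genes listed for the T cell sort. No member was used to name a cell.

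These receptors sit on natural killer (NK) cells, innate lymphoid cells (ILC) and some T cells, and set how readily those cells kill or release cytokines. CD94, the product of Klrd1, pairs with NKG2A (Klrc1), which inhibits through phosphatases, or with NKG2C (Klrc2), which activates through an adaptor, and both pairs bind the non-classical MHC molecule Qa-1. NKG2D (Klrk1) and NKp46 (Ncr1) are activating receptors, NK1.1 (Klrb1c) is the classical NK cell antigen of C57BL/6 mice, and Klrg1 is an inhibitory receptor for cadherins that marks differentiated lymphocytes.

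The cells came from C57BL/6 mice carrying B16-F10 melanoma, a mouse tumor line that had been given a doxycycline-inducible green fluorescent protein, ZsGreen (ZsG), and grown from a single bright clone. All groups shared the tumor line and doxycycline in the drinking water, and tumors were collected on day 8. Leukocytes (CD45 sort) and, in a separate experiment, T cells (T cell sort, gated on CD45 and the T cell receptor) were each sorted into a ZsG-negative gate and a ZsG-positive gate, ZsG in a leukocyte being material taken up from the tumor. Each gate of each sort gave 1 library, which leaves the variation among mice unmeasured and allows no test between gates. By the study's account, the ZsG-positive gate of the CD45 sort was set on bright cells and most lymphocytes that held ZsG fell into its ZsG-negative gate. For the T cell sort, the names of the deposited files give the order of the gates in 2 ways that conflict. The order of the combined matrix, which puts the ZsG-positive library first, was used. Every direction between the gates of that sort would turn around if the other order holds. The study reported more regulatory and more exhausted CD8 T cells among its ZsG-positive T cells. In the order used, 113 of 716 ZsG-positive and 31 of 636 ZsG-negative T cells were classed as regulatory. Exhausted CD8 T cells numbered 119 and 51.

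The 4 libraries held 1136 to 5437 cell barcodes and 10030971 to 56510578 UMIs (unique molecular identifiers, each counting 1 captured RNA molecule), and 948 to 4699 cells passed the filters, with a median of 5769 to 9928 UMIs per kept cell. Of the kept cells, 5 barcodes were shared by the libraries of the CD45 sort and 0 by those of the T cell sort. Cells were classed by marker UMIs. The ZsG-negative library of the CD45 sort gave 2389 NK/ILC cells and 1594 T cells, and the ZsG-positive library, in which 2875 of 4123 kept cells were myeloid, gave 103 NK/ILC cells and 192 T cells. The T cell sort gave 636 and 716 T cells (ZsG-negative and ZsG-positive) but also 123 and 608 plasmacytoid dendritic cells (pDC), 74 and 227 myeloid cells, and 21 and 38 NK/ILC cells, so its label does not hold for all of its cells. The NK/ILC cells fitted their name by genes outside the rule: in the ZsG-negative library of the CD45 sort Eomes stood at 199 CPM (UMIs of the gene per 1000000 UMIs of the class) and Gzma at 5699, against 39.5 and 356 in its T cells.

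The members lie mostly side by side in the genome. On build GRCm38, 9 of the 10 are on chromosome 6, where Klrb1a to Klrc1 span 1.07 Mb, Klre1 to Klrc1 span 101 kb, and Klrg1 lies 6.33 Mb away from Klrb1a. Ncr1 is on chromosome 7 (chr7:4337724-4345164, plus strand). Promoters of 300 bases, from 250 before to 50 after the transcription start, were matched in RefSeq (GRCm38.p6) for 8 of the 10 members, all but Klrd1 and Klrg1. The 4 shown belong to genes that the results below turn on: Klrb1a (chr6:128622885-128623184, minus strand), Klrb1c (chr6:128788592-128788891, minus strand), Klrc1 (chr6:129678924-129679223, minus strand) and Ncr1 (chr7:4337465-4337764, plus strand). Each is written along its gene's own strand. Capitals mark the letters TGTGGT or their reverse complement ACCACA, which Runx factors are known to bind, and, in Ncr1 alone of these 4, GTGTGA, the reverse complement of the T-box letters TCACAC.
Klrb1a: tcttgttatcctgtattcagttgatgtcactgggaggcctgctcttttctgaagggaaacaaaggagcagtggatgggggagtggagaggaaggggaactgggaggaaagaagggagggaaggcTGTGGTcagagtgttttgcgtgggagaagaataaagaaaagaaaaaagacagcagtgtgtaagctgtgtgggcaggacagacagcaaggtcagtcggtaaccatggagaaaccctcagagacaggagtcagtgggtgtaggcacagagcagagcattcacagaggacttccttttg
Klrb1c: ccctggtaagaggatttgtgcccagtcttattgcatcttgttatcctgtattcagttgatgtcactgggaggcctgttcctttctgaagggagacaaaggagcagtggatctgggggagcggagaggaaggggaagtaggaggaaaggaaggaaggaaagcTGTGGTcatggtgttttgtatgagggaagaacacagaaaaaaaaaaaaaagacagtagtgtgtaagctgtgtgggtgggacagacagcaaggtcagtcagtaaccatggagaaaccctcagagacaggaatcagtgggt
Klrc1: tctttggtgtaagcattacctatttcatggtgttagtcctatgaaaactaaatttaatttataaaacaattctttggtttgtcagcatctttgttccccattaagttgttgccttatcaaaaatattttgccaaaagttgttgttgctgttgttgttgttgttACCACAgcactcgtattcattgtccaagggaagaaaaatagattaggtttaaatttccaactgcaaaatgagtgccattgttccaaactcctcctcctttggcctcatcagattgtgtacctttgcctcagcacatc
Ncr1: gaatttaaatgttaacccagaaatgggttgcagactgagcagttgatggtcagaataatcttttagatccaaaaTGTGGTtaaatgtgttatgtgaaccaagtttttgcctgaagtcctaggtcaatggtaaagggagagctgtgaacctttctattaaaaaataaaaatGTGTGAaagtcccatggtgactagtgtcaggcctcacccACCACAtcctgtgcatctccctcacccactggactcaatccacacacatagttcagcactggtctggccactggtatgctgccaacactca
The Runx letters stood in 7 of the 8 member promoters, Klrb1f being the exception, against 16.9% of all 27025 promoters searched on both strands. The T-box letters stood in 2 of 8, Klre1 and Ncr1, against 14.4% of all promoters. The promoters of Klrb1a and Klrb1c shared a run of 41 identical bases and were 89.1% identical over 265 aligned bases, while no other pair of members shared a run of more than 13. A letter match is a description of the sequence and not a binding site.

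These transcripts stood at a higher level in NK/ILC cells than in T cells of all 4 libraries. In the ZsG-negative library of the CD45 sort the 10 members summed to 3978 CPM in NK/ILC cells and to 1122 CPM in T cells. The sums were 3313 and 699 CPM in the ZsG-positive library, 4006 and 883 CPM in the ZsG-negative library of the T cell sort, and 3510 and 764 CPM in its ZsG-positive library. In UMIs summed without scaling, T cells of the T cell sort held more than its few NK/ILC cells (4126 against 452 and 5069 against 771), and the 2875 myeloid cells of the ZsG-positive library of the CD45 sort held 4161 against 1839 in its NK/ILC cells. When each cell of the CD45 sort's ZsG-negative library was thinned to 2000 UMIs, the median NK/ILC cell showed 5 of the 10 members and the median T cell 1, and 0.294% of NK/ILC cells and 21.0% of T cells showed none. All intervals below are exact 95% intervals that cover counting error only. Counts come from the 3' end of the RNA, so levels are compared between cells and not between genes.

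**Figure D1:**
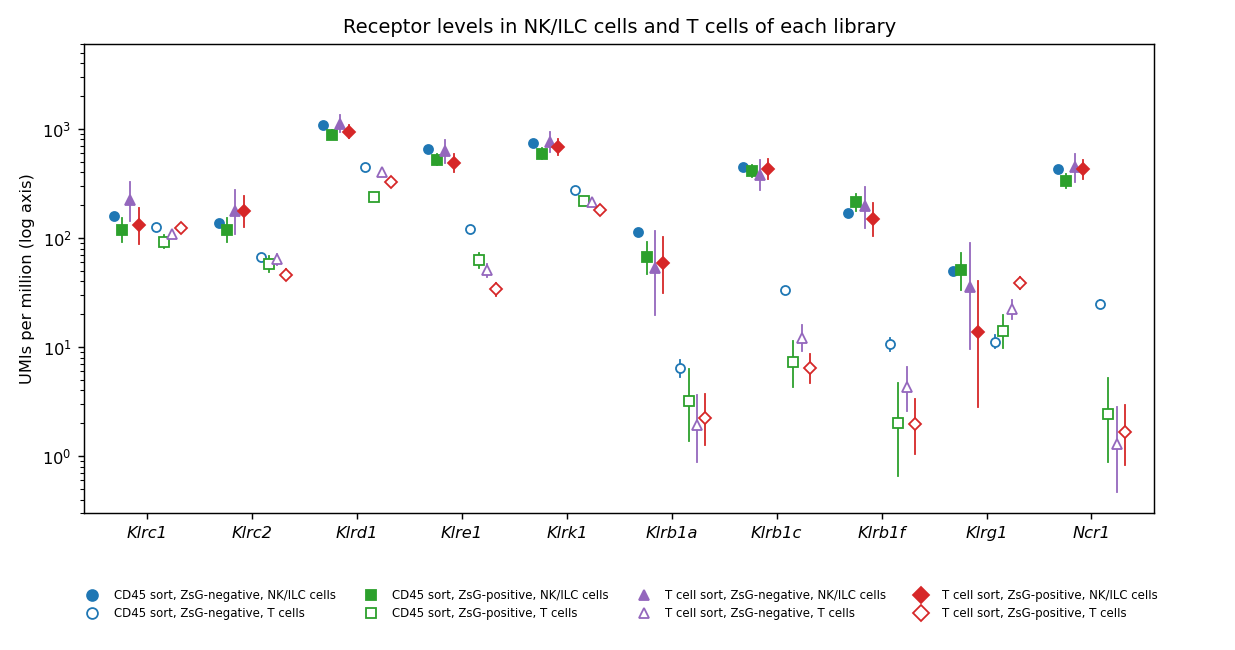
Level of each receptor gene in CPM (log axis) in NK/ILC cells (filled symbols) and T cells (open symbols) of each of the 4 libraries; bars are exact 95% Poisson intervals for counting error. The NKR-P1 genes and Ncr1 are over 10 times higher in NK/ILC cells than in T cells of every library. The Klrc1 ranges overlap, at 119 to 222 CPM in NK/ILC cells and 92.6 to 125 CPM in T cells.

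Ncr1, Klrb1a, Klrb1c and Klrb1f separated the 2 lineages most. Ncr1 stood at 427, 331, 443 and 428 CPM in NK/ILC cells (CD45 sort ZsG-negative and ZsG-positive, then T cell sort ZsG-negative and ZsG-positive) and at 24.7, 2.42, 1.28 and 1.66 CPM in T cells. The ranges of the 2 lineages were far apart in all libraries, and the ZsG-negative T cells of the CD45 sort were the highest among the T cells. Klrb1c stood at 447, 411, 381 and 433 CPM in NK/ILC cells and at 33.2, 7.25, 12.2 and 6.48 CPM in T cells. Klrb1a, an activating NKR-P1 receptor gene, stood at 114, 66.7, 53.2 and 59.2 CPM in NK/ILC cells against 6.40, 3.22, 1.93 and 2.26 CPM in T cells. Klrb1f stood at 171, 213, 195 and 150 CPM against 10.6, 2.01, 4.28 and 1.96 CPM. For each of these 4 genes the lowest NK/ILC level was above the highest T cell level. In the ZsG-negative library of the CD45 sort the log2 ratio of NK/ILC over T cells was 4.11 (3.98 to 4.25) for Ncr1, 4.16 (3.90 to 4.42) for Klrb1a, 4.01 (3.81 to 4.21) for Klrb1f and 3.75 (3.64 to 3.86) for Klrb1c.

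The NKG2 genes were shared by both lineages to different degrees. Klrd1 stood at 1079, 886, 1117 and 942 CPM in NK/ILC cells and at 449, 239, 406 and 329 CPM in T cells. Klrk1 stood at 741, 594, 762 and 683 CPM in NK/ILC cells and at 273, 218, 212 and 180 CPM in T cells. Klre1, whose product is a CD94-like chain that pairs with other members of the family, stood at 655, 522, 620 and 492 CPM against 122, 62.8, 50.5 and 33.9 CPM. Klrc2 stood at 137, 119, 177 and 178 CPM against 66.7, 58.0, 63.6 and 46.2 CPM. All 4 were higher in NK/ILC cells in every library, by less than the NKR-P1 genes. Klrc1 was also higher in NK/ILC cells of each library, but its ranges over the libraries overlapped. It stood at 158, 119, 222 and 132 CPM in NK/ILC cells and 125, 92.6, 109 and 123 CPM in T cells. In the ZsG-negative library of the T cell sort the intervals were separate, 143 to 327 CPM on 25 UMIs against 99.3 to 118 CPM. In its ZsG-positive library they overlapped. Its log2 ratio was 0.34 (0.26 to 0.42) in the ZsG-negative and 0.36 (-0.06 to 0.76) in the ZsG-positive library of the CD45 sort. Klrg1 stood at 49.3, 50.4, 35.5 and 13.7 CPM in NK/ILC cells and at 11.2, 14.1, 22.3 and 38.6 CPM in T cells. NK/ILC cells were higher in both libraries of the CD45 sort. In the T cell sort their values rested on 4 and 3 UMIs, with intervals of 9.66 to 90.8 and 2.82 to 39.9 CPM. These overlapped the T cell intervals of 18.2 to 27.0 and 34.0 to 43.6 CPM, so no order is read there.

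Counted as genes at least 2-fold higher, with 20 or more UMIs over both groups and 0.5 UMIs added to each sum, 9 of 10 members were higher in NK/ILC cells of the ZsG-negative library of the CD45 sort, where 9.49% of 11852 genes were. The median log2 ratio was 2.28 over the members and 0.05 over all genes. The interval for Klrc2, 1.04 (0.94 to 1.14), reached below 2-fold. In the ZsG-positive library it was again 9 of 10, against 9.12% of 8307 genes, with medians of 2.47 and -0.05. Klrc1 was the member left out in both.

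Shares of cells with a UMI depend on depth and are given as measured and after thinning. Klrd1 was seen in 96.1% of NK/ILC cells and 84.4% of T cells of the ZsG-negative library of the CD45 sort (82.6% and 57.4% at 2000 UMIs), with median depths of 4562 and 7200.5 UMIs. Ncr1 was seen in 77.3% and 10.9% (52.1% and 5.21% thinned), and Klrc1 in 41.1% and 51.5% unthinned but 25.4% and 21.1% thinned. Myeloid cells, which are not known to carry Ncr1 or NKG2A, showed Ncr1 in 0 of 239 cells of this library and in 0.104% of 2875 cells of the ZsG-positive library (median depths 8324 and 10037 UMIs), and Klrc1 in 1.67% and 0.348%. Klrk1 differed in this respect: myeloid cells held it at 41.8, 102, 82.8 and 97.1 CPM in the 4 libraries, and 23.4%, 54.8%, 41.9% and 41.9% of them had a UMI (9.21%, 17.5%, 10.8% and 16.9% thinned). The Klrd1 level of myeloid cells was 0.93 to 19.9 CPM. pDC carried Klrd1 at 233, 283, 199 and 186 CPM, below T cells in 3 libraries and above them in the ZsG-positive library of the CD45 sort, but Klrc1 and Klrc2, its partners, at 0 to 0.777 CPM. In pDC the Klrd1 share at 2000 UMIs was 24.7% to 32.0%. Among NK/ILC cells, Klrd1 was seen in 82.1% of 1050 thinned cells with a Klrc1 or Klrc2 UMI and in 83.0% of 1335 cells with neither.

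Partners and adaptors of the receptors were read from a list of 35 genes. Tyrobp (DAP12, the adaptor of NKG2C) was used to class NK/ILC cells and is not counted. Of the 3 other adaptors, Fcer1g was at least 2-fold higher in NK/ILC than in T cells of the ZsG-negative library of the CD45 sort, where 9.49% of all genes were, at 1872 against 175 CPM. Hcst (DAP10, the adaptor of NKG2D) stood at 357 and 229 CPM and Cd247 at 58.3 and 83.7 CPM. All 5 other receptors of these families that were tested were at least 2-fold higher, led by the inhibitory NKR-P1 gene Klrb1b at 227 against 9.82 CPM and by Klri2, a partner chain of Klre1, at 183 against 14.3 CPM. Of 10 signalling genes, 4 were at least 2-fold higher (Inpp5d, Sh2d1b1, Syk and Plcg2), with Syk at 41.5 against 2.8 CPM and Sh2d1b1 (EAT-2) at 50.2 against 3.0 CPM. Of 7 ligands tested, Cdh1, the cadherin bound by Klrg1, was higher on few counts, and H2-T23, which encodes Qa-1, was similar at 273 and 239 CPM. In pDC H2-T23 reached 889 CPM and Cdh1 76.1 CPM in that library.

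Within NK/ILC cells the NKG2A gene ran against the Ly49 receptors, the other MHC class I receptors of mouse NK cells. NK/ILC cells were split by UMIs of Klra3, Klra4, Klra7, Klra8 and Klra9, of Xcl1 and of Gzmc into Ly49-positive NK cells (1759), Ly49-negative Xcl1-positive cells (110), Gzmc-high cells (244) and others (276) in the ZsG-negative library of the CD45 sort. The Ly49-negative Xcl1-positive cells had less Eomes than the Ly49-positive cells (85.9 and 234 CPM) and more Cxcr6 (59.6 and 3.2 CPM), Tmem176a (88.7 and 5.6 CPM) and Itga1 (19.4 and 5.7 CPM). Klrc1 stood at 331 CPM in these cells and at 134 CPM in the Ly49-positive cells, a log2 difference of 1.30 (1.10 to 1.5). It was the 1 member of 10 past 2-fold, where 12.1% of all genes were, a share near that of all genes. Klrc1 was seen in 80.0% of the Ly49-negative Xcl1-positive and 33.5% of the Ly49-positive cells (52.7% and 21.1% thinned), at median depths of 5279.5 and 4450 UMIs. Ncr1 was 589 against 417 CPM (log2 0.50, 0.35 to 0.64), while Klrb1c was 327 against 540 CPM (-0.72, -0.92 to -0.54) and Klre1 was 481 against 731 CPM (-0.60, -0.76 to -0.45). Klrc2, Klrk1, Klrb1a and Klrb1f had log2 differences between -0.06 and 0.15, each with an interval that held 0. Klrb1b, not a member, was 554 against 189 CPM.

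**Figure D2:**
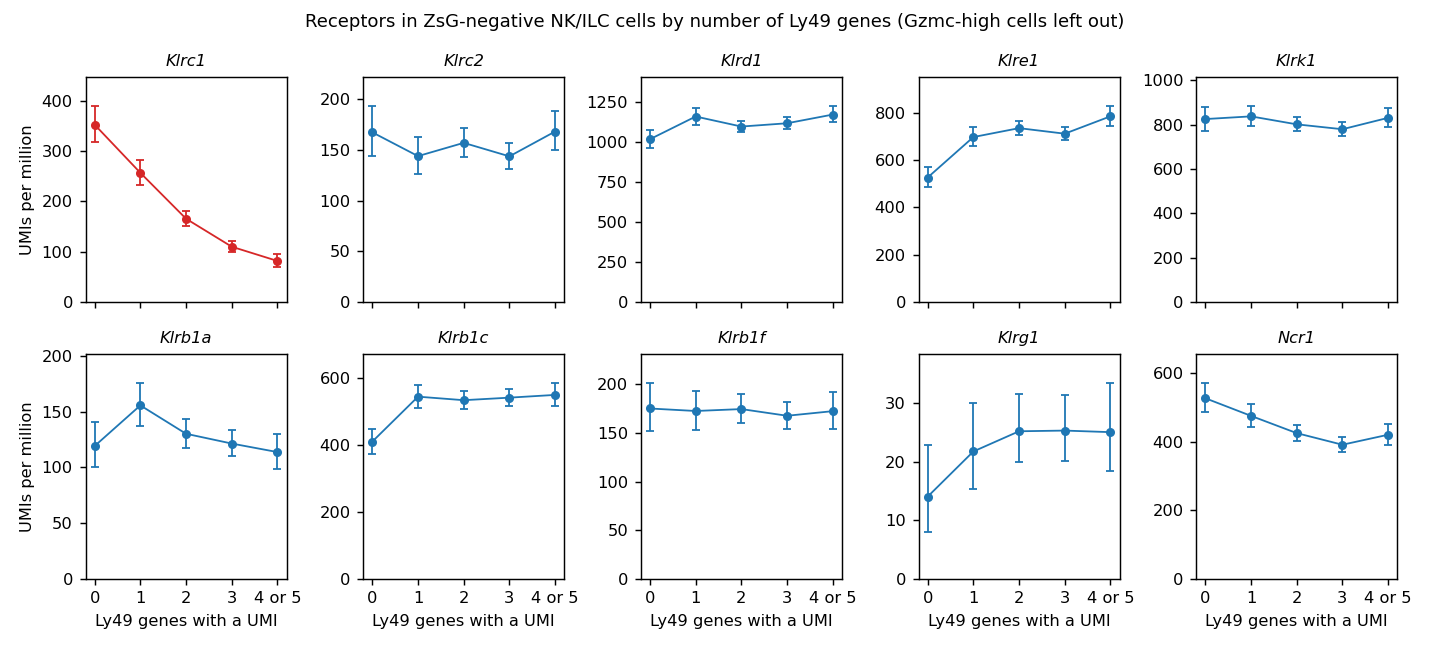
Level of each receptor gene in CPM (y axes from 0, exact 95% Poisson intervals) in ZsG-negative NK/ILC cells of the CD45 sort, grouped by how many of 5 Ly49 genes had a UMI in the cell (x axes). Klrc1, drawn in red, falls from 352 to 81.6 CPM from 0 to 4 or more Ly49 genes, and no other receptor falls by as much.

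The Klrc1 level fell with each further Ly49 gene seen in a cell. With Gzmc-high cells left out, it was 352 CPM (319 to 388) in 205 cells with 0 Ly49 genes, 257 CPM (233 to 282) in 367 cells with 1, 165 CPM (151 to 181) in 605 cells with 2, 110 CPM (98.9 to 122) in 632 cells with 3 and 81.6 CPM (69.1 to 95.8) in 336 cells with 4 or more. None of these intervals overlapped, and the median depth of the 5 groups was 4457, 4122, 4324, 4476 and 4742.5 UMIs, rising from 1 to 4 or more Ly49 genes. In the ZsG-positive library Klrc1 was 223 CPM (138 to 340) in 22 cells with 1, 111 CPM (55.6 to 199) in 24 cells with 2 and 85.3 CPM (40.9 to 157) in 26 cells with 3. The cells with 0 Ly49 genes include the 110 Ly49-negative Xcl1-positive cells, so the first step is in part the subset difference given above. No other member fell at every step. Ncr1 fell by less and only up to 3 Ly49 genes, at 526 (485 to 570), 475, 425, 391 (370 to 413) and 420 CPM over the 5 groups. Klrd1, the chain that NKG2A needs, was 1018, 1160, 1097, 1117 and 1172 CPM, and Klre1 was 526, 696, 734, 711 and 784 CPM.

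Gzmc-high NK cells, named for a granzyme gene of strongly activated killer cells, differed from Ly49-positive NK cells in Klrg1 and Klrb1c. Gzmc-high cells were set apart first, whatever their Ly49 UMIs, so they are not Ly49-negative by rule. Klrg1 stood at 136 CPM in them and at 24.9 CPM in Ly49-positive NK cells, a log2 difference of 2.45 (2.22 to 2.69). Klrb1c was lower, at 178 against 540 CPM (-1.60, -1.73 to -1.48). These were 2 of 10 members past 2-fold, where 14.5% of genes were, a share near that of all genes. Klrc2 (81.4 against 152 CPM), Klrb1a (69.5 against 126 CPM), Klrk1 (514 against 799 CPM) and Klre1 (475 against 731 CPM) were lower by 0.91, 0.86, 0.64 and 0.62 on the log2 scale, with intervals below 0. Ncr1, at 410 against 417 CPM, and Klrb1f, at 166 against 172 CPM, had log2 differences of -0.02 (-0.11 to 0.07) and -0.05 (-0.20 to 0.09). Gzmc-high cells were deeper, with a median of 11711 UMIs against 4450. At 2000 UMIs per cell Klrg1 was seen in 20.5% of them and in 4.33% of Ly49-positive cells (43.4% and 8.58% unthinned), and Klrb1c in 36.9% and 65.1%. Hcst, the NKG2D adaptor gene, was 201 against 405 CPM.

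Among CD8 T cells of the T cell sort, the NKG2A gene stood higher in exhausted cells than in CD8 T cells outside the named subsets. The Klrg1 level was lower in the exhausted cells, but the shares of cells with a Klrg1 UMI had overlapping intervals. The CD45 sort showed neither difference in level. In its ZsG-positive library Klrc1 stood lower in exhausted than in other CD8 T cells, at 121 against 171 CPM with overlapping intervals. Exhausted cells were those with Pdcd1 and Havcr2 (51 ZsG-negative, 119 ZsG-positive), precursors those with Pdcd1 and Tcf7 and no Havcr2 (25 and 31), and the other CD8 T cells those that fell in no named subset (171 and 158). Klrc1 was 88.0 CPM in ZsG-negative and 142 CPM in ZsG-positive other CD8 T cells, 305 and 141 CPM in precursors, 151 and 168 CPM in Gzmk-positive cells and 197 and 223 CPM in exhausted cells. The order of these subsets differed between the libraries. Klrk1 was 175 and 215 CPM in other CD8 T cells and 300 and 225 CPM in exhausted cells. Klrd1 was 387 and 422 CPM in other CD8 T cells against 506 and 323 CPM in exhausted cells, so it was higher in the exhausted cells of one library and lower in those of the other.

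Of the 6 members with enough UMIs for exhausted over other CD8 T cells, 2 were past 2-fold in the ZsG-negative library (23.2% of genes were): Klrc1 with a log2 ratio of 1.16 (0.79 to 1.53) and Klrg1 with -1.98 (-3.71 to -0.59) on 5 against 28 UMIs. In the ZsG-positive library 1 of 6 was (15% of genes): Klrg1 with -2.25 (-3.88 to -0.84) on 6 against 17 UMIs, while Klrc1 had 0.65 (0.39 to 0.92). Klrk1 had 0.78 (0.50 to 1.05) and 0.07 (-0.16 to 0.30), and Klrd1 0.39 (0.19 to 0.58) and -0.39 (-0.56 to -0.21). The rule for exhausted cells asks for more markers and picked deeper cells, with medians of 12853 and 12794 UMIs against 6396 and 6184 in other CD8 T cells. In shares of cells with a Klrc1 UMI, exhausted cells had 84.3% and 76.5% and other CD8 T cells 28.1% and 35.4%, and at 2000 UMIs 29.4% and 37.0% against 13.5% and 14.8%. In the CD45 sort, with 398 ZsG-negative and 59 ZsG-positive exhausted cells, Klrc1 was 139 and 121 CPM in exhausted cells against 129.5 and 171 CPM in 228 and 30 other CD8 T cells. Klrg1 was 6.49 and 7.59 CPM in exhausted cells against 6.43 and 3.57 CPM there, the last on 1 UMI. Thinned, a Klrc1 UMI was seen in 25.1% and 25.4% of those exhausted cells and in 19.3% and 20% of the other CD8 T cells, at median depths of 26755 and 20296 against 6307 and 4864 UMIs.

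**Figure D3:**
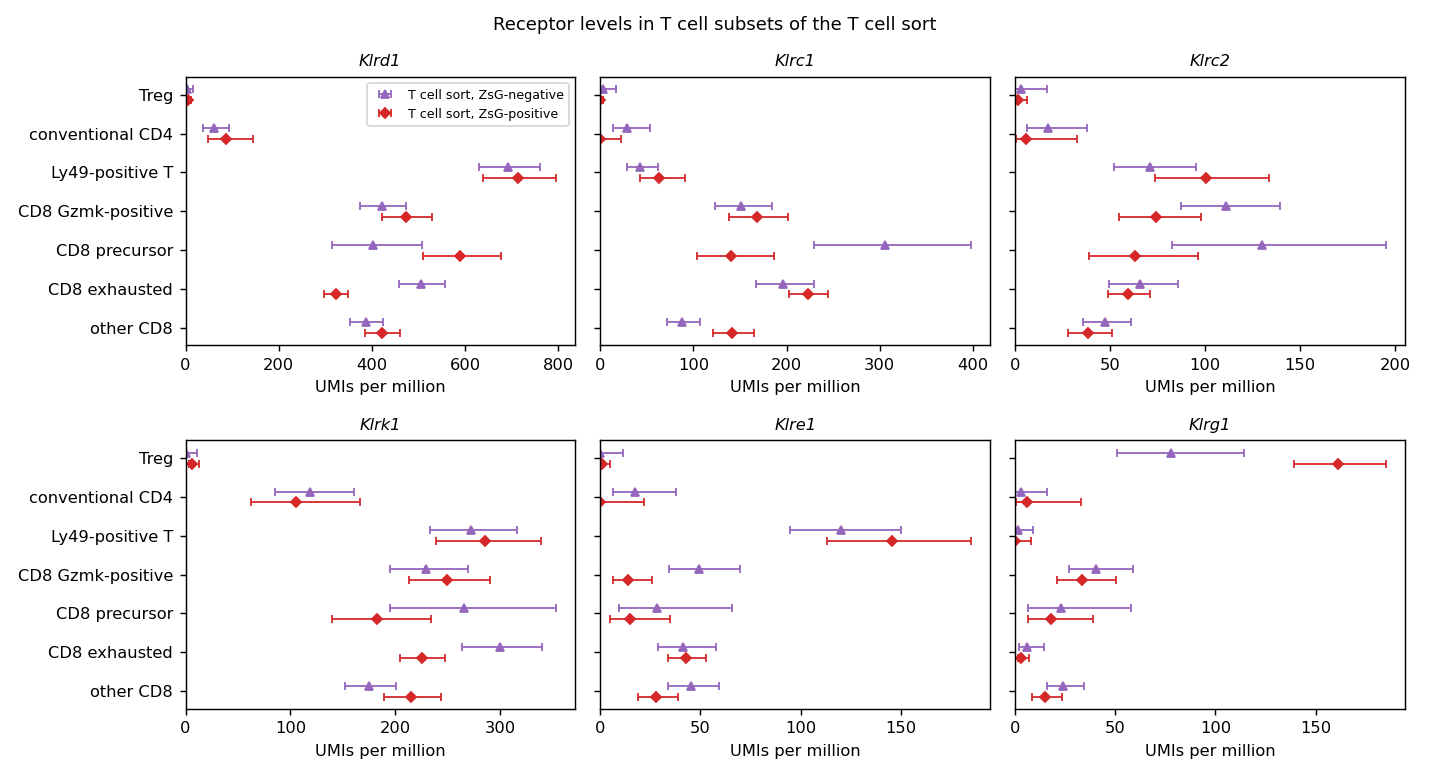
Levels of 6 receptor genes in CPM (x axes from 0) in T cell subsets of the T cell sort (y axes), for the ZsG-negative (triangles) and ZsG-positive (diamonds) library, with exact 95% Poisson intervals for counting error. Klrc1 is lowest in Treg and conventional CD4 cells, Klrd1 is highest in Ly49-positive T cells at 692 and 715 CPM, and Klrg1 is highest in Treg at 78.0 and 161.

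T cells with Ly49 UMIs had more Klrd1 than the other CD8 T cells in both sorts. They had less Klrc1 in the T cell sort and, on 3 UMIs, in the ZsG-positive library of the CD45 sort. These Ly49-positive T cells had at least 3 UMIs of Klra1, Klra6 and Klra7 and no Cd4 UMI. CD8 genes were not asked for, so they are not all CD8 T cells by rule. In the ZsG-negative library of the T cell sort 94 such cells had Klrd1 at 692 CPM, against 387 CPM in the 171 other CD8 T cells (log2 0.84, 0.65 to 1.03), and in the ZsG-positive library 66 of them had 715 CPM. Klrc1 was 42.7 against 88.0 CPM (-1.04, -1.71 to -0.42), and 63.2 CPM in the ZsG-positive library. Klrg1 was lower as well, with 1 UMI against 28. Klrb1c was higher at 49.0 CPM against 7 UMIs, or 5.98 CPM (3.04, 1.82 to 4.46), and Klre1 at 120.2 against 45.3 CPM (1.41, 0.88 to 1.94). Klrc1, Klrg1, Klrb1c and Klre1 were the 4 of 7 tested members past 2-fold, where 7.37% of genes were. In the ZsG-negative library of the CD45 sort 367 Ly49-positive T cells had Klrd1 at 826 CPM, against 520.0 CPM in other CD8 T cells. Klrc1 was 114 against 129.5 CPM there (20.7% against 19.3% of cells thinned) and Klrg1 11.5 against 6.43 CPM. In the ZsG-positive library of that sort Klrc1 was 24.4 against 171 CPM, on 3 UMIs in 23 Ly49-positive T cells. These 367 cells also held more Tyrobp (594 against 149 CPM) and more Ncr1 (97.6 against 6.92 CPM) than the other CD8 T cells. The part of Tyrobp-rich cells in the Klrd1 level was not tested. Regulatory T cells (Treg, with a Foxp3 UMI) had nearly no NKG2 RNA in the T cell sort: Klrc1, Klrc2, Klrd1, Klre1 and Klrk1 each stood at 0 to 6.58 CPM in both libraries of the T cell sort. The NKR-P1 genes and Ncr1 stood at 0 to 0.822 CPM there, and Klrg1 was the one member above these ranges, at 78.0 and 161 CPM. Treg of the CD45 sort held more NKG2 RNA, but in a minority of the cells. In 59 ZsG-negative cells Klrd1 was 92.8 CPM, Klrk1 58.9 CPM and Klre1 45.4 CPM, beside Klrg1 at 58.0 CPM and Ncr1 at 24.2 CPM. A UMI of these genes was seen in 15, 9, 9, 20 and 6 of the 59 cells. A single cell held 49.0%, 45.9%, 34.0%, 16.7% and 40% of the UMIs. In 20 ZsG-positive cells Klrk1 was 29.4 CPM and Klrd1 23.5 CPM, from 4 and 3 cells. Tyrobp was 311 and 176 CPM in ZsG-negative and ZsG-positive Treg of the CD45 sort, against 3.00 and 69.9 CPM in the T cell sort. The part of Tyrobp-rich cells in these levels was not tested.

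Not all cells classed as T cells in the CD45 sort were alike. In its ZsG-negative library 223 of 1594 T cells (14%) held 3 or more UMIs of Tyrobp, an adaptor gene of NK and myeloid cells, and these cells carried most of the Ncr1 and NKR-P1 RNA. Ncr1 was 165 CPM in them and 3.12 CPM in the other 1371 T cells, Klrb1a 39.6 and 1.31 CPM, Klrb1f 60.6 and 2.95 CPM and Klrb1c 147 and 15.8 CPM. Klrc1 was similar in both, at 138 and 123 CPM. Cd3e was 212 and 321 CPM, Trdc, a gamma-delta T cell gene, was 70.2 and 34.8 CPM, and the median depth was 9274 and 6950 UMIs. Whether these cells are T cells with NK receptors or droplets that held a T cell and an NK cell was not tested. In the T cell sort 9 of 636 and 33 of 716 T cells had 3 or more Tyrobp UMIs, and Ncr1 in the rest was 0 and 1 UMI.

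**Figure D4:**
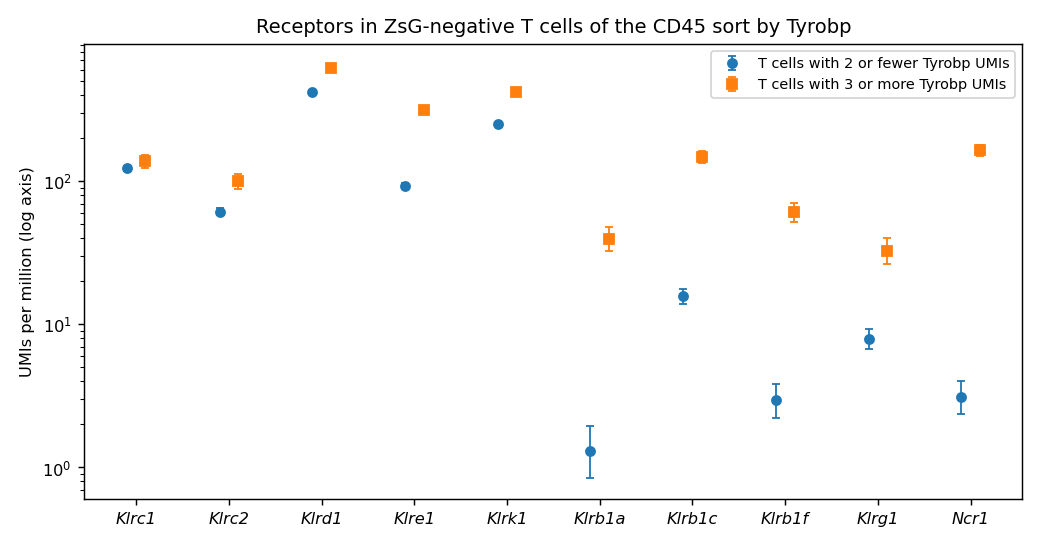
Level of each receptor gene in CPM (log axis) in ZsG-negative T cells of the CD45 sort with 2 or fewer (circles, 1371 cells) and with 3 or more (squares, 223 cells) Tyrobp UMIs, with exact 95% Poisson intervals. Ncr1 differs most, at 3.12 and 165 CPM, and Klrc1 least, at 123 and 138.

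In NK/ILC cells no member differed by 2-fold between the gates, and most ratios lay somewhat below 1. In the CD45 sort 0 of 10 members were past 2-fold between ZsG-positive and ZsG-negative NK/ILC cells, where 15% of genes were. The median log2 ratio was -0.30 over the members and 0.02 over all genes. Klrd1 was lower by 0.28 on the log2 scale in ZsG-positive cells (-0.28, -0.42 to -0.15), Klrk1 had -0.32 (-0.48 to -0.16), Klre1 -0.33 (-0.50 to -0.16) and Ncr1 -0.37 (-0.58 to -0.15). Klrc1 had -0.41 (-0.79 to -0.06), Klrb1a, with 37 UMIs in the ZsG-positive cells, had -0.78 (-1.29 to -0.31), and Klrb1f had 0.32 (0.04 to 0.58). The intervals of Klrc2 (-0.21, -0.58 to 0.15), Klrb1c (-0.12, -0.32 to 0.07) and Klrg1 (0.03, -0.57 to 0.58) held 0. The gates differed in RNA of other cells at the same time: UMIs of 7 myeloid markers made 677 CPM of the ZsG-positive and 50.1 CPM of the ZsG-negative NK/ILC cells, and melanocyte genes 9.01 and 0.349 CPM. Their part in the ratios was not tested. The mix of subsets differed too, with 5 of 103 ZsG-positive and 244 of 2389 ZsG-negative cells classed as Gzmc-high, and its part was not tested either. Ncr1 was 418 and 417 CPM in ZsG-positive and ZsG-negative Ly49-positive NK cells, and 172 and 453 CPM in the 24 and 276 other NK/ILC cells. Klre1 was still lower in ZsG-positive Ly49-positive NK cells, at 644 against 731 CPM. Within Ly49-positive NK cells (71 and 1759 cells) Klrg1 was the 1 of 10 past 2-fold, at 59.7 against 24.9 CPM (1.26, 0.50 to 1.94) on 19 UMIs in the ZsG-positive cells, where 16.8% of genes were.

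**Figure D5:**
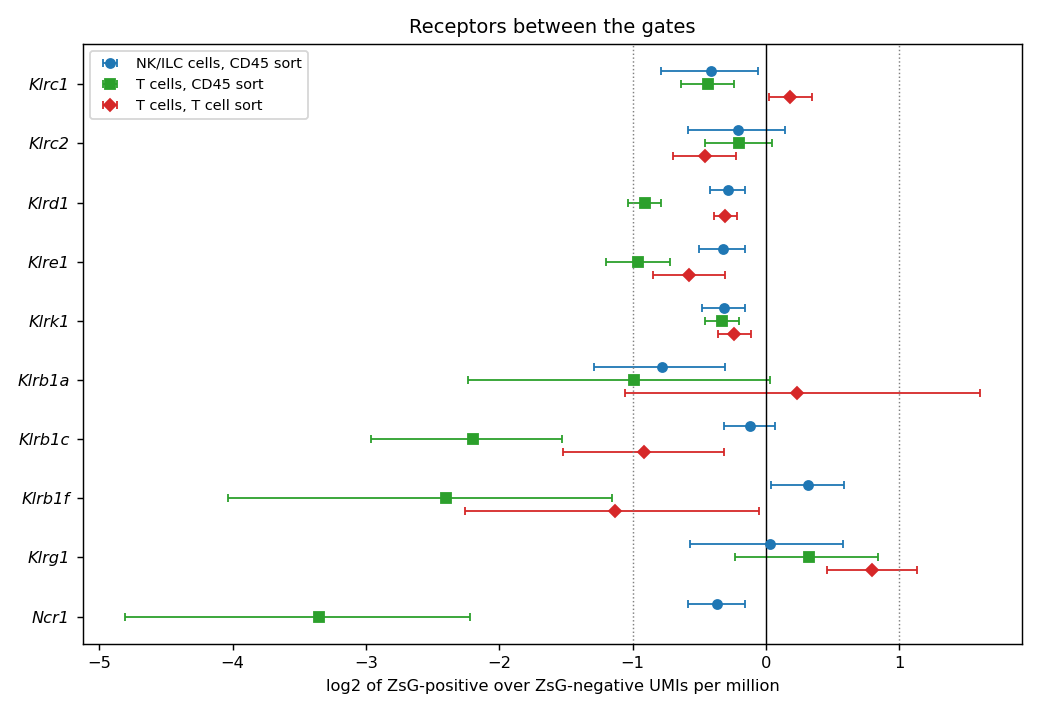
Log2 ratio of ZsG-positive over ZsG-negative CPM (x axis) for each receptor gene (y axis) in NK/ILC cells and T cells of the CD45 sort and in T cells of the T cell sort, with exact 95% intervals for counting error; dotted lines mark 2-fold, and Ncr1 had under 20 UMIs in T cells of the T cell sort. No NK/ILC ratio passes 2-fold, and in T cells of the CD45 sort Ncr1, Klrb1f and Klrb1c lie below -2.

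In T cells of the T cell sort, 1 of 9 tested members was past 2-fold between the gates, where 6.26% of genes were. This was Klrb1f, on 13 ZsG-positive and 20 ZsG-negative UMIs (-1.13, -2.26 to -0.05). Klrd1 stood at 329 and 406 CPM in ZsG-positive and ZsG-negative T cells (-0.30, -0.39 to -0.21), Klre1 at 33.9 and 50.5 CPM (-0.58, -0.85 to -0.31), Klrc2 at 46.2 and 63.6 CPM (-0.46, -0.69 to -0.22) and Klrk1 at 180 and 212 CPM (-0.24, -0.36 to -0.12). Klrc1 and Klrg1 went the other way, with Klrc1 at 123 and 109 CPM (0.18, 0.02 to 0.35) and Klrg1 at 38.6 and 22.3 CPM (0.79, 0.46 to 1.14). The ZsG-positive T cells held more Tyrobp (107 against 21.6 CPM), more myeloid marker RNA (90.2 against 27.6 CPM) and more melanocyte RNA (9.94 against 3.43 CPM), and their part in the ratios was not tested. The 2 libraries also held different mixes of T cells, with 113 and 31 Treg and 119 and 51 exhausted cells.

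Within CD8 T cells of the T cell sort 0 of 7 tested members were past 2-fold, where 5.65% of genes were. Klrc1 was 184 CPM in ZsG-positive and 148 CPM in ZsG-negative cells (0.32, 0.14 to 0.49), and in exhausted cells alone it was 223 and 197 CPM (0.18, -0.08 to 0.45). In precursors it was lower in ZsG-positive cells, at 141 against 305 CPM, and in Gzmk-positive and other CD8 T cells it was higher. At 2000 UMIs a Klrc1 UMI was seen in 24.3% and 21.2% of CD8 T cells, with overlapping intervals. Klrd1 in exhausted cells was 323 and 506 CPM (-0.65, -0.83 to -0.47). Klrg1 in CD8 T cells was 12.4 and 22.5 CPM (-0.86, -1.42 to -0.30). It was seen in 6.65% and 8.88% of these cells (2.73% and 3.44% at 2000 UMIs), with overlapping intervals. In Treg, Klrg1 was the 1 member with enough UMIs and was past 2-fold (9.02% of genes were), at 161 against 78.0 CPM (1.05, 0.45 to 1.70). It was seen in 46.0% (36.6 to 55.6) of ZsG-positive and 29.0% (14.2 to 48.0) of ZsG-negative Treg, so the intervals overlapped. At 2000 UMIs the shares were 24.8% and 9.68%, again with overlapping intervals (median depths 7137 and 5829 UMIs). Under the alternatives tried the log2 ratio ran from 0.45 to 1.86, and it was under 2-fold in 7 of them. In Treg of the CD45 sort Klrg1 was 32.4 CPM in 20 ZsG-positive and 58.0 CPM in 59 ZsG-negative cells.

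T cells of the CD45 sort had 3 of 10 members past 2-fold, all lower in the ZsG-positive library, where 8.21% of genes were past 2-fold. Ncr1 was 2.42 against 24.7 CPM (-3.35, -4.80 to -2.22), Klrb1f 2.01 against 10.6 CPM (-2.40, -4.04 to -1.16) and Klrb1c 7.25 against 33.2 CPM (-2.20, -2.96 to -1.53). In the ZsG-negative library these genes stood higher in T cells with 3 or more Tyrobp UMIs than in the others. With such cells left out of both libraries none of the 10 was past 2-fold lower. Ncr1 then had a log2 ratio of -0.51, Klrb1f of -0.15 and Klrb1c of -0.88. Klrb1a, at 3.22 against 6.40 CPM in all T cells, was then past 2-fold higher on 6 against 24 UMIs. This alternative was added after seeing the data and takes out the ZsG-negative cells highest in these genes. The part of such cells in the gate ratios was not tested. In CD8 T cells of that sort 2 of 9 were past 2-fold, where 6.63% of genes were: Klrb1c with 0 UMIs in 106 ZsG-positive cells, which allows up to 1.70 CPM (3 UMIs), against 98 UMIs (6.82 CPM) in 754 ZsG-negative cells, and Ncr1 with 2 against 103 UMIs. Klrc1 in CD8 T cells was 124 and 139 CPM (-0.17, -0.38 to 0.03) and Klrk1 228 and 248 CPM (-0.12, -0.28 to 0.03).

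Over 33 groups of at least 50 cells, the genes whose levels were most like those of Ncr1 were Styk1, Kit and Clnk, and those most like Klrb1a were Clnk, Kit and Rab27b (Pearson r of log2 levels 0.96 for Styk1 and 0.99 for Clnk). Klrb1c was most like Clnk (0.96), Klrb1f most like Rab27b (0.96), and Klre1 most like Spry2 (0.94). Klrc1 was most like Cd226 (0.93), the gene of an activating receptor of killer lymphocytes, and Klrc2 like Ctsw (0.95). Ctsw was used to class NK/ILC cells, so its level over the groups was in part set by that rule. Klrd1 was most like Runx3 (0.94), a Runx factor of killer lymphocytes, and Klrk1 like Ugcg (0.91). Klrg1 had no such close partner, Camk2n1 being the nearest with 0.71. Among 11754 genes compared, the groups share libraries, so these values carry no p.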

How the data were processed

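Tumor-infiltrating cells were profiled with 10x Genomics 3' chemistry in 4 libraries, 1 per gate and sort. The values used are UMI counts per gene and cell that the authors deposited as combined matrices. According to the labels the authors aligned reads to mm10 with Cell Ranger 6.1.2. The matrix header of the T cell sort names 6.1.2 and that of the CD45 sort 7.0.0. The libraries of each sort had been combined, and whether their depth was evened is not stated in the sources used here.

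Following the study's methods, cells were kept with 1000 to 6000 genes and under 10% mitochondrial UMIs in the CD45 sort, and with 50 to 6000 genes and under 15% in the T cell sort, whose T cells also needed 0.055% Cd3d, Cd3e and Cd3g UMIs. Cells were classed by marker UMIs. NK/ILC cells had at least 3 UMIs of Nkg7, Ctsw, Il2rb and Txk, at least 2 of Tyrobp and at most 1 of Cd3d and Trac. T cells had at least 2 of Cd3d and Trac, and at least 3 of Cd3d, Cd3e, Cd3g and Trac. Both were limited to 0.2% myeloid marker UMIs, and cells in no class numbered 91 to 926 per library. Gzmc-high cells had at least 5 Gzmc UMIs and were set apart first, whatever their Ly49 UMIs. Ly49-positive NK cells were the remaining cells with at least 3 Ly49 UMIs. A CD8 T cell subset listed for this work is not reported here, and its cells stand among the other CD8 T cells. No doublet caller was run.

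UMIs were summed per class and library and divided by all UMIs of those cells, as CPM, the UMIs per 1000000 UMIs. Sums have exact Poisson, shares exact Clopper-Pearson and ratios exact conditional 95% intervals. With 1 library per gate there was no test. A gene counted as past 2-fold with 0.5 UMIs added to each sum and at least 20 UMIs over both groups. Thinning drew 2000 UMIs per cell. Likeness was the Pearson r of log2(CPM + 10) over groups of at least 50 cells, among genes with at least 100 UMIs. Members were left out of the ranking of genes most like a member. All 10 members are named, with a fixed list of adaptors, related receptors, ligands and signalling genes, of which Klrh1, and Clec2f in the T cell sort, were not analysed here. The last 300 bases of paralogs shared runs of at most 9 identical bases in the GENCODE transcript models used. Members, lists and cell classes were chosen with earlier results of these data known. The scripts were tested on simulated data. Analyses ran in Python 3.11.15 with scipy 1.17.1, numpy 2.4.6, pandas 2.3.3, Biopython 1.88 and matplotlib 3.10.9, and TMM factors, an alternative scaling, came from edgeR 4.0.16 in R 4.3.3.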

Additional observations from a re-analysis of the deposited data

Results flagged for a closer look

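For 3 members the ratio between the gates pointed in opposite directions in different cell groups, each with an interval that left out 0. In all, 70 pairs of ratios were compared, 9 ratios of these 3 members met that rule, and the difference between them was not tested, since there was 1 library per gate. Klrc1, the NKG2A gene, had a log2 ratio of ZsG-positive over ZsG-negative cells of -0.41 in NK/ILC cells and -0.44 in T cells of the CD45 sort, but 0.18 in T cells and 0.32 in CD8 T cells of the T cell sort. In CD8 T cells of the CD45 sort Klrc1 was 124 and 139 CPM in ZsG-positive and ZsG-negative cells, with a ratio interval that held 0. As a pair, the CD8 T cells of both sorts thus did not meet the rule. Their values still pointed opposite ways, lower in ZsG-positive cells of the CD45 sort and higher in those of the T cell sort. Klrb1f had 0.32 in NK/ILC cells of the CD45 sort, -2.40 in its T cells and -1.13 in T cells of the T cell sort, where it rested on 33 UMIs. The value of -2.40 rested on 5 UMIs in the ZsG-positive T cells. With T cells of more than 2 Tyrobp UMIs left out, that ratio was no longer past 2-fold, and the part of such cells was not tested. Klrg1 had -0.86 in CD8 T cells and 1.05 in Treg of the T cell sort, both from the same pair of libraries. In both groups the shares of cells with a Klrg1 UMI had overlapping intervals between the gates. In CD8 T cells of the CD45 sort Klrg1 was similar, at 6.22 CPM in ZsG-positive and 6.75 CPM in ZsG-negative cells. All values for the T cell sort would change sign if its gates are the other way around.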

How the results depend on the processing

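No paired analysis was possible because each gate of each sort gave 1 library, which also left no replicate to leave out. Over 15 alternatives, 12 planned and 3 added after seeing the data, 1490 of 1669 log2 ratios stayed within the counting interval of the value reported, 179 moved, and 0 of those past 2-fold changed sign. Sign changes of ratios under 2-fold were not counted. Klrb1a in T cells of the CD45 sort was such a case, without T cells of more than 2 Tyrobp UMIs. In NK/ILC cells against T cells 9 of 10 members past 2-fold, and 0 between the gates in NK/ILC cells, stayed within 1.5 times under every alternative that gave a value. The count between the gates in T cells of the T cell sort, 1 as reported, was 2 with 1 more marker UMI asked for, 0 with a mean over cells, with thinning or with the 5% deepest cells left out, 2 without T cells of more than 2 Tyrobp UMIs, and 0 with only cells that had no myeloid marker UMI. For exhausted over other CD8 T cells, 2 as reported in the ZsG-negative library was 1 with a mitochondrial limit of 5%, with 1 more marker UMI, with totals free of mitochondrial and ribosomal protein genes or with no myeloid marker UMI, and 4 without the UMI minimum. The 1 of the ZsG-positive library was 2 without the 5% deepest cells and without the UMI minimum. Without that minimum the added 0.5 UMIs sets the ratio. The count was 4 for Gzmc-high cells with thinning and 2 for Ly49-negative Xcl1-positive cells without myeloid marker UMIs. Alternatives with under 20 cells in a group gave no value; 5 of 103 NK/ILC and 10 of 192 T cells of the ZsG-positive library of the CD45 sort had no myeloid marker UMI. Depth limits Klrb1a, Klrb1f and Ncr1 in T cells, where sums are of few UMIs.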

Other observations

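Klrk1 was the one member with a level over 40 CPM in myeloid cells of every library, and it was also the member whose pDC level differed most between the gates of the CD45 sort, at 64.4 CPM in 197 ZsG-negative and 260 CPM in 26 ZsG-positive pDC. The pDC of the T cell sort held it at 52.8 and 59.7 CPM. Among member pairs, levels of Klrc1 and Klrc2 had an r of 0.93 over the 33 groups of cells. These values were not tested.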
